A study of Mus musculus with 34 samples.

Results

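The nuclear genes for the subunits of the mitochondrial respiratory chain and ATP synthase were followed across 34 RNA libraries of cultured mouse CD4 T cells. Members are the protein-coding genes whose symbols begin with Nduf, Uqcr, Cox4, Cox5, Cox6, Cox7, Cox8 or Atp5, together with Sdha, Sdhb, Sdhc, Sdhd and Cyc1, and pseudogenes are left out. Of 97 such genes in the annotation, 96 were among the 27179 identifiers counted. Ndufb1 was not analysed here. By complex they comprise 38 genes of complex I, 4 of complex II, 9 of complex III, 20 of complex IV and 17 of complex V. The prefix Nduf also takes in 8 Ndufaf genes, which encode assembly factors of complex I and not subunits, and they are given apart. Ndufa4 and Ndufa4l2 are counted with complex IV, where the Ndufa4 protein sits despite its name.

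Naive CD4 T cells of C57BL/6 mice were activated on wells carrying bound antibodies against CD3 and CD28, cultured in vitro for 3.5 days and sorted by flow cytometry, and their RNA was read at the 3′ ends of transcripts (QuantSeq). All groups share this background and differ in a culture code and a number. Code TfhA had 5 libraries and code Tfh5 6 libraries, both with the number 4e4 (TfhA_4e4 and Tfh5_4e4). Code Tfh2 was present with 4 numbers, as Tfh2_1e4 (6 libraries), Tfh2_2e4 (5), Tfh2_4e4 (6) and Tfh2_6e4 (6). What the codes mean, what the number counts and how the sort gate was set are not stated in the labels. The series title is about TGF-beta and c-Maf in the choice between the follicular helper and TH17 fates. The labels do not tie a code or a number to either.

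Complexes I and II take electrons from NADH and succinate and pass them through ubiquinone to complex III, from which cytochrome c carries them to complex IV, where oxygen is reduced. Complexes I, III and IV pump protons across the inner mitochondrial membrane, and complex V uses the returning protons to make ATP. Most subunits are encoded in the nucleus and must be matched by a small set made inside the mitochondrion. In T cells the chain is known to be built up after activation, alongside glycolysis.

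Total counts were 4481509 to 9934245 per library. Levels are in CPM, counts scaled so that libraries have equal normalized totals. A pair of identifiers for which the annotation gives no symbol held 48.34% of counts on average and is part of that total. The members held 1.555% of the counts that matched a symbol. The genes Cd4, Cd3d, Cd3e, Cd3g, Cd5 and Cd28, which mark CD4 T cells, summed to 1153.7 to 1323.0 CPM in TfhA_4e4, wholly below Tfh5_4e4 (1488.2 to 1585.1 CPM) and Tfh2_4e4 (1392.6 to 1694.1 CPM). Within Tfh2 the sum was 1431.4 to 1664.1 CPM in Tfh2_6e4, wholly above the 1216.4 to 1396.7 CPM in Tfh2_1e4. Cd5 ran against the sum there, with 10694 counts in Tfh2_1e4 and 7465 in Tfh2_6e4 at mean library totals of 8698996 and 7718128. It also did so between TfhA_4e4 (5752 counts in 5 libraries) and Tfh2_4e4 (8380 in 6), at mean totals of 5769570 and 8015424.5. The part of these marker shifts in the changes of the respiratory chain genes was not tested. Marker lists of B cells, NK cells, erythroid cells and macrophages each summed to at most 2.87 CPM in any library. The CD8 T cell genes Cd8a and Cd8b1 summed to 3.39 to 14.5 CPM, the highest value being in TfhA_4e4.

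The libraries did not vary only by group. In 5 of 6 groups every library numbered 1 to 3 lay above every library numbered 4 to 6 in the summed CPM of the 88 subunit genes, and Tfh5_4e4 was the exception. In Tfh2_4e4, for instance, libraries 1 to 3 averaged 8021.8 CPM and libraries 4 to 6 averaged 6998.9 CPM. The meaning of the numbers is not labelled. TfhA_4e4 has no library 4 and Tfh2_2e4 no library 3, so the 2 ranges are not balanced between groups. Median fold changes are therefore also given within each range of numbers. In every group the mitochondrial rRNA share was lower in libraries 1 to 3 than in libraries 4 to 6 on average. Nothing in the labels says that replicates were separate cultures or animals, so p-values cover only the spread among these libraries, which may be technical. In bulk RNA, fewer cells of a type and less RNA per cell cannot be told apart.

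Of the 96 members, 85 had enough counts to be tested. Cox7b2, Cox8b, Cox8c and Uqcr11 had 0 counts in all libraries, which allows up to 0.0117 CPM. The other 7 untested members were Atp5d, Cox4i2, Cox6a2, Cox7a2, Ndufa4l2, Ndufa8 and Sdhd, with at most 151 counts each over all libraries. Some of these encode subunits that every copy of the enzyme needs, such as the membrane anchor Sdhd. Their counts speak only of what was assigned to the identifier, since how multi-mapped reads were counted is not given in the sources used here.

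Summed over its members, complex I reached 2757.2 ± 292.7 CPM in TfhA_4e4 (SD, n = 5) and 2307.8 ± 214.0 CPM in Tfh5_4e4 (n = 6). Within Tfh2 it was 2617.3 ± 223.6, 2556.0 ± 229.2, 2453.0 ± 198.3 and 2393.2 ± 236.8 CPM at 1e4, 2e4, 4e4 and 6e4. The sums are set out by library in the plot of complexes, and the ranges of neighbouring groups overlap in complex I.

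**Figure D1:**
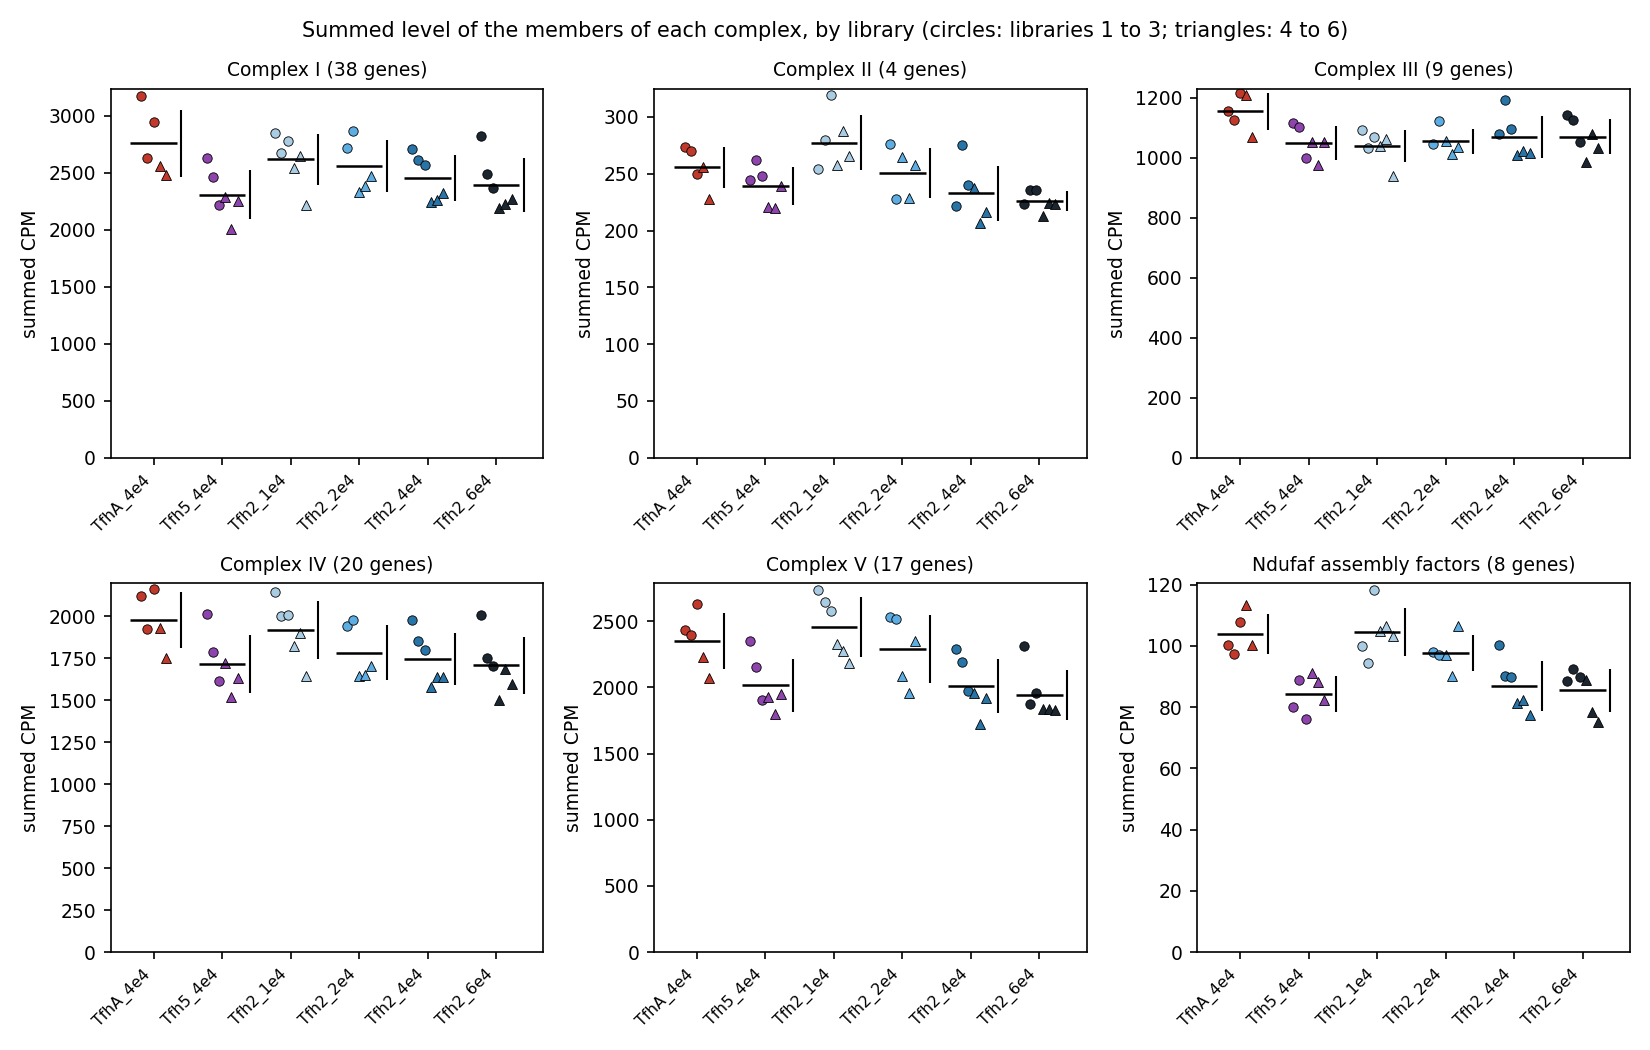
Summed CPM (vertical axis) of the members of each complex in every library of the 6 groups, with the group mean as a line and the SD as a bar; circles are libraries 1 to 3 and triangles libraries 4 to 6. Complex V is lower towards Tfh2_6e4, complex III is nearly level within Tfh2, and circles tend to lie above triangles.

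Complex V differed more along the Tfh2 numbers, with 2457.1 ± 224.1, 2288.3 ± 257.3, 2007.6 ± 203.2 and 1941.8 ± 189.7 CPM at 1e4, 2e4, 4e4 and 6e4. The sum of complex III was nearly level there, with 1039.6 ± 52.9, 1054.8 ± 41.8, 1069.7 ± 69.4 and 1070.3 ± 58.8 CPM. That sum held members with opposite slopes, 4 called lower per doubling and 1 (Uqcrh) called higher. Complex IV averaged 1978.5 ± 167.5 CPM in TfhA_4e4, 1714.0 ± 173.4 CPM in Tfh5_4e4 and 1747.2 ± 154.4 CPM in Tfh2_4e4. These sums are a description without a test, and single libraries overlap between each pair of groups just named.

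More subunit genes were higher than lower in TfhA_4e4 cells than in Tfh2_4e4 cells. By edgeR's quasi-likelihood test (adjusted p under 0.05 over all 11357 genes tested) 22 members were higher and 3 were lower. Of all genes tested 32.8% were called in this comparison, 15.5% higher and 17.4% lower. The members' total share called (29.4%) was thus near the background, and the direction was uneven. The median log2 fold change was 0.201 over the 85 members and -0.009 over all genes tested. Within the libraries numbered 1 to 3 the members' median was 0.165, and within those numbered 4 to 6 it was 0.201.

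Against Tfh5_4e4 the TfhA_4e4 cells had 29 members higher and 6 lower, with 39.5% of all genes called, 19.1% higher and 20.4% lower. The members' median log2 fold change was 0.209 there, and 0.224 and 0.222 within the 2 ranges of library numbers. The contrasts share the TfhA_4e4 libraries. A total of 20 members were higher in TfhA_4e4 than in both other codes, and Ndufb11, Ndufs1 and Uqcrfs1 were lower than in both.

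**Figure D2:**
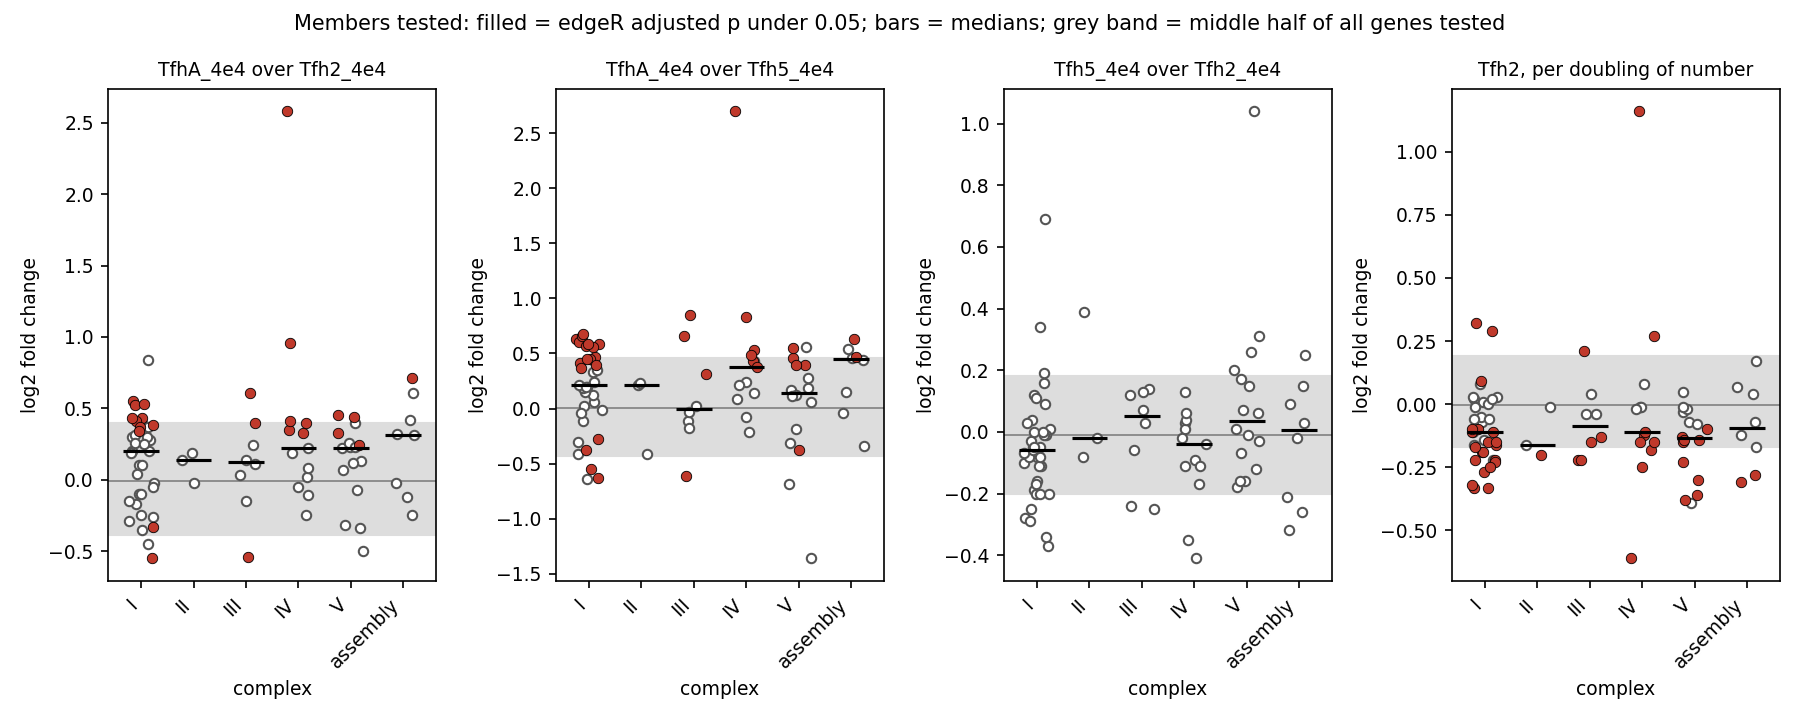
Log2 fold change (vertical axis) of each member tested, by complex, for TfhA_4e4 over Tfh2_4e4, TfhA_4e4 over Tfh5_4e4, Tfh5_4e4 over Tfh2_4e4, and per doubling of the number within Tfh2. Filled points passed edgeR's test, bars are medians per complex and the grey band holds the middle 50% of all genes tested; filled points lie mostly above 0 in the panels with TfhA_4e4, mostly below 0 in the last, and none is filled for Tfh5_4e4 over Tfh2_4e4.

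The mitochondrial rRNA genes took 14.8% of the counts left after the 2 identifiers without a symbol in TfhA_4e4, 9.81% in Tfh5_4e4 and 9.92% in Tfh2_4e4. It was 12.6% to 17.3% in the TfhA_4e4 libraries and at most 11.5% in all others, so the share and the code cannot be told apart. With the share as a covariate, which extrapolates across that gap, 35 members were higher and 1 lower in TfhA_4e4 than in Tfh2_4e4 (median 0.462, with 2720 of all genes called). Against Tfh5_4e4 36 were higher and 1 lower (median 0.489, with 3204 of all genes called).

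In complex I, 9 of 37 tested members were higher and 2 lower in TfhA_4e4 than in Tfh2_4e4. Ndufs8, an iron-sulfur subunit of the ubiquinone-reducing module, measured 84.3, 57.4, 55.8, 41.8 and 60.4 CPM in TfhA_4e4, against 31.2 (lowest), 39.5 (median) and 51.1 (highest) CPM in Tfh2_4e4. All TfhA_4e4 libraries lay above the Tfh2_4e4 mean, but the 2 groups overlapped. Its log2 fold change was 0.55 (SE 0.163, edgeR adjusted p = 0.00738). It did not pass without TfhA_4e4 replicate 1, nor within libraries 1 to 3 alone. Ndufa5, an accessory subunit of the same module, had a log2 fold change of 0.52 (SE 0.164), and Ndufab1, the mitochondrial acyl carrier protein, 0.53 (SE 0.152). Ndufab1 did not pass within libraries 1 to 3 alone.

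Ndufb11, an X-linked subunit of the membrane arm (GRCm38.p6 chromosome X, 20615326 to 20617619), went the other way. It measured 86.9, 95.7, 99.6, 94.7 and 96.1 CPM in TfhA_4e4, against 109.2 (lowest), 143.9 (median) and 156.2 (highest) CPM in Tfh2_4e4. The 2 groups did not overlap, and neither did TfhA_4e4 and Tfh5_4e4, where Ndufb11 ranged from 119.7 to 151.4 CPM. Its log2 fold change was -0.55 in both contrasts (SE 0.0969, edgeR adjusted p = 1.12e-05 against Tfh2_4e4 and 8.34e-06 against Tfh5_4e4), and its call held under each of the 23 alternatives run. At its 5′ end Ndufb11 shares 263 bases with Rbm10 on the opposite strand, away from the 3′ end that the libraries read. Ndufs1, which carries several iron-sulfur clusters of the NADH-oxidising module, was lower as well, with 24.8 ± 3.07 CPM in TfhA_4e4 (n = 5) and 31.1 ± 3.74 CPM in Tfh2_4e4 (n = 6), a log2 fold change of -0.33 (SE 0.114, edgeR adjusted p = 0.0233).

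Against Tfh5_4e4, 14 complex I members were higher and 4 lower. The higher ones included Ndufa5 (log2 fold change 0.68), Ndufc1 (0.66) and Ndufb9 (0.63), all accessory subunits. Ndufb9 measured 166.9 ± 22.3 CPM in TfhA_4e4 and 107.5 ± 8.50 CPM in Tfh5_4e4, and the 2 groups did not overlap. The lower ones included Ndufa1 (-0.63), Ndufb11 (-0.55) and Ndufs1 (-0.28).

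None of the 3 tested complex II genes was called in these contrasts. Sdha, the flavoprotein that oxidises succinate, measured 108.9 ± 8.76 CPM in TfhA_4e4, 94.2 ± 8.03 CPM in Tfh5_4e4 and 95.6 ± 6.66 CPM in Tfh2_4e4. Its log2 fold change against Tfh2_4e4 was 0.19 (SE 0.0916, edgeR adjusted p = 0.113). Sdhc, a membrane anchor, had 41.0 ± 12.5 CPM in TfhA_4e4, 54.7 ± 7.13 CPM in Tfh5_4e4 and 41.6 ± 21.0 CPM in Tfh2_4e4.

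Complex III split by subunit. Uqcr10, one of its small membrane subunits, measured 189.6, 164.6, 182.2, 167.1 and 154.6 CPM in TfhA_4e4, against 74.8 (lowest), 98.1 (median) and 105.7 (highest) CPM in Tfh5_4e4 and 87.9, 106.4 and 148.3 CPM in Tfh2_4e4. Every TfhA_4e4 library lay above every library of the other codes at 4e4. The log2 fold change was 0.85 against Tfh5_4e4 (SE 0.119, edgeR adjusted p = 9.54e-08) and 0.61 against Tfh2_4e4 (SE 0.118, edgeR adjusted p = 5.51e-05). A lncRNA gene, Gm51883, overlaps its last 225 annotated bases on the opposite strand. Uqcrq, the ubiquinone-binding accessory subunit, was likewise higher in TfhA_4e4, by 0.66 against Tfh5_4e4 and 0.40 against Tfh2_4e4, with no overlap in either. Cyc1, which encodes cytochrome c1, had 48.2 ± 9.59 CPM in TfhA_4e4, 49.0 ± 9.63 CPM in Tfh5_4e4 and 44.6 ± 9.5 CPM in Tfh2_4e4 and was not called.

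Uqcrfs1, the Rieske iron-sulfur protein that passes electrons to cytochrome c1, was lower. It measured 46.1, 70.0, 55.7, 66.7 and 51.7 CPM in TfhA_4e4, against 69.1 (lowest), 85.1 (median) and 113.2 (highest) CPM in Tfh5_4e4 and 66.1, 74.3 and 114.0 CPM in Tfh2_4e4. Its highest TfhA_4e4 libraries reached into the ranges of the other codes. The log2 fold change was -0.61 against Tfh5_4e4 (SE 0.147, edgeR adjusted p = 0.000751) and -0.54 against Tfh2_4e4 (SE 0.147, edgeR adjusted p = 0.00318). Neither call held with the mitochondrial rRNA share as a covariate, nor within libraries 4 to 6 alone.

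In complex IV, 6 of 13 tested members were higher in TfhA_4e4 than in Tfh2_4e4, and 6 than in Tfh5_4e4, with none lower. They were Ndufa4, Cox6b2, Cox5b, Cox6a1, Cox6c and Cox8a in both. The broadly expressed subunit Cox6a1 measured 265.1 ± 32.0 CPM in TfhA_4e4, 188.2 ± 9.15 CPM in Tfh5_4e4 and 200.8 ± 26.6 CPM in Tfh2_4e4. Cox8a, the usual isoform of the smallest subunit, had a log2 fold change of 0.41 against Tfh2_4e4 (SE 0.126, edgeR adjusted p = 0.00947). This call was lost without TfhA_4e4 replicate 3, and within libraries 4 to 6 alone.

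Ndufa4 (chromosome 6, 11900372 to 11907450) encodes a subunit of complex IV. It measured 28.6, 31.5, 39.6, 29.5 and 32.2 CPM in TfhA_4e4, against 13.9 (lowest), 17.7 (median) and 21.6 (highest) CPM in Tfh5_4e4 and 12.2, 17.4 and 19.5 CPM in Tfh2_4e4. All TfhA_4e4 libraries lay above all libraries of both other codes at 4e4. The log2 fold change was 0.83 against Tfh5_4e4 (SE 0.158, edgeR adjusted p = 3.12e-05) and 0.96 against Tfh2_4e4 (SE 0.158, edgeR adjusted p = 4.11e-06). Ndufa4l2 had 5 counts in all, 4 of them in 1 TfhA_4e4 library.

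Cox6b2 (chromosome 7, 4751792 to 4753094), an isoform of subunit 6b known mainly from testis, had the largest change of any member. It measured 18.1, 26.1, 12.1, 25.7 and 28.9 CPM in TfhA_4e4, against 1.82 (lowest), 3.23 (median) and 5.22 (highest) CPM in Tfh5_4e4 and 1.45, 3.66 and 5.27 CPM in Tfh2_4e4. The lowest TfhA_4e4 library lay above the highest library of either other code. Its log2 fold change was 2.7 against Tfh5_4e4 (SE 0.366, edgeR adjusted p = 5.16e-08) and 2.58 against Tfh2_4e4 (SE 0.363, edgeR adjusted p = 1.58e-07). The ubiquitous isoform Cox6b1 measured 203.2 ± 32.8 CPM in TfhA_4e4, 175.8 ± 17.8 CPM in Tfh5_4e4 and 174.9 ± 19.8 CPM in Tfh2_4e4, and was not called in either contrast.

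**Figure D3:**
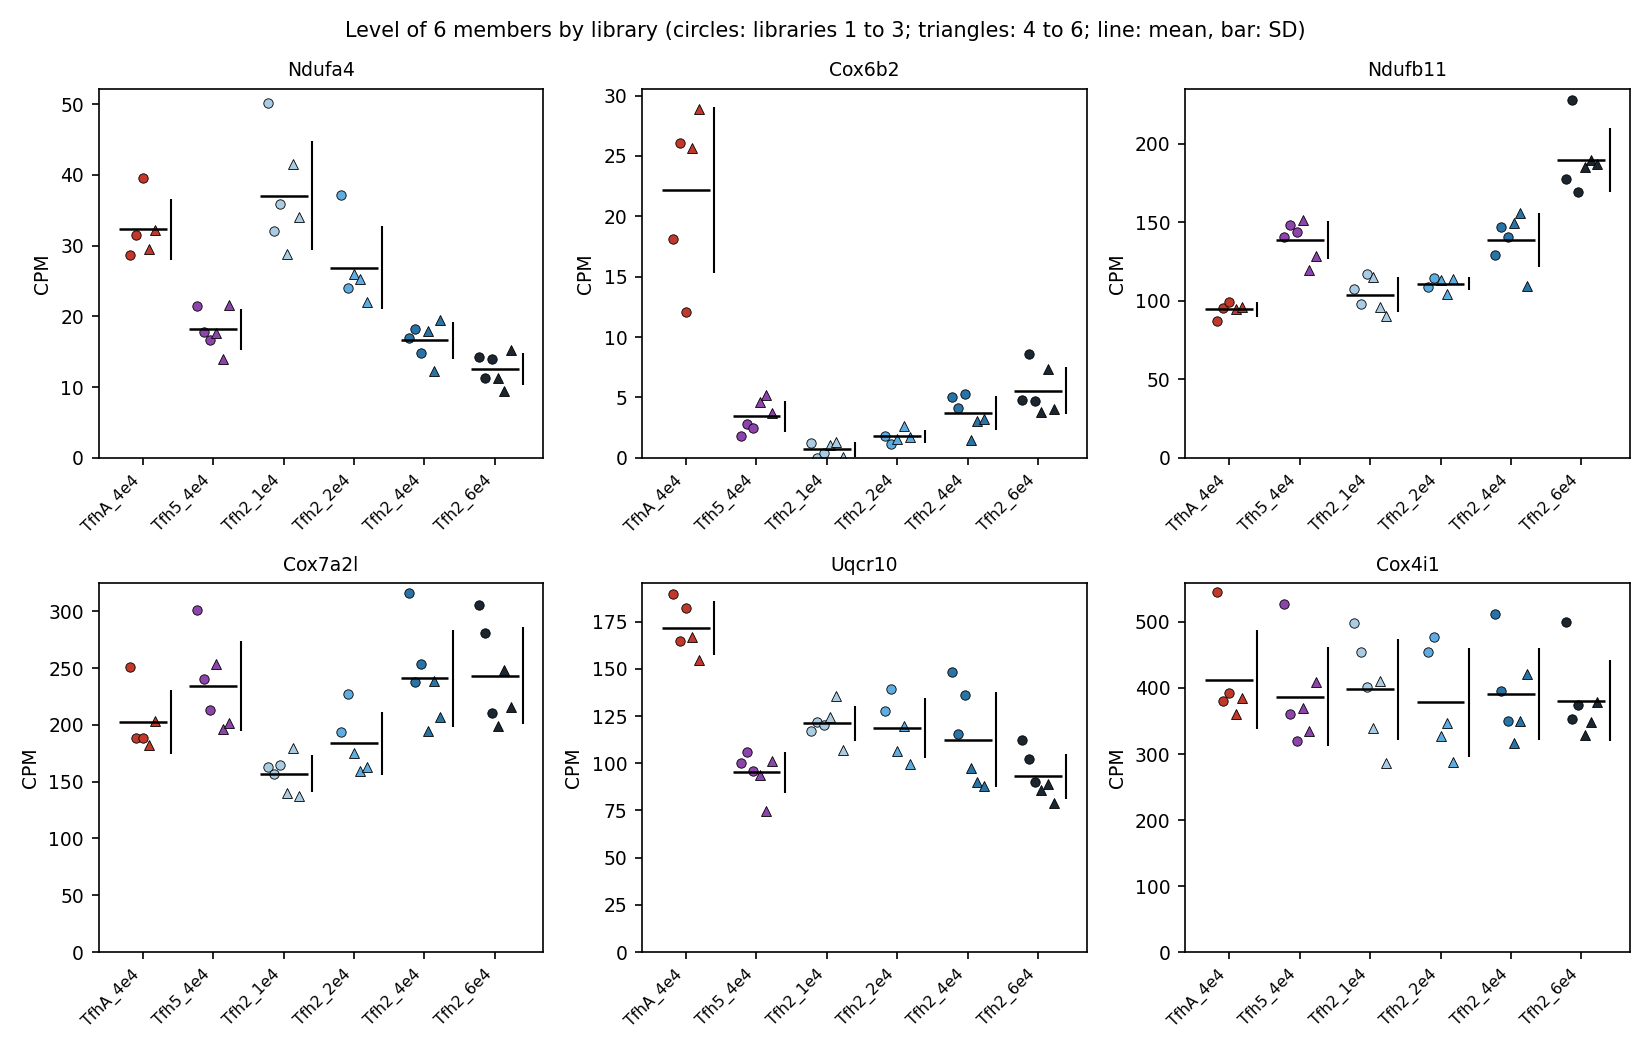
Level in CPM (vertical axis, from 0) of Ndufa4, Cox6b2, Ndufb11, Cox7a2l, Uqcr10 and Cox4i1 in every library of the 6 groups, with the group mean as a line and the SD as a bar. Ndufa4 and Ndufb11 run in opposite directions along the Tfh2 numbers, Cox6b2 is highest in TfhA_4e4, and the group means of Cox4i1 lie between 378.6 and 412.7 CPM.

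Complex V had 4 of 16 tested members higher in TfhA_4e4 than in Tfh2_4e4 and none lower, and 4 higher and 1 lower against Tfh5_4e4. Atp5b, the catalytic beta subunit, measured 450.4, 478.3, 489.0, 416.0 and 409.2 CPM in TfhA_4e4, against 280.0 (lowest), 312.8 (median) and 374.1 (highest) CPM in Tfh5_4e4 and 270.1, 320.6 and 394.1 CPM in Tfh2_4e4. The TfhA_4e4 libraries did not overlap with either code. The log2 fold change was 0.46 against Tfh5_4e4 (SE 0.0974, edgeR adjusted p = 0.000156) and 0.45 against Tfh2_4e4 (SE 0.0974, edgeR adjusted p = 0.000274). Atp5o, which joins the catalytic head to the stalk, was higher by 0.55 and 0.44 in the same contrasts, and the call against Tfh2_4e4 was lost within libraries 1 to 3 alone. The 1 lower member was Atp5h, a stalk subunit, with a log2 fold change of -0.38 against Tfh5_4e4 (edgeR adjusted p = 0.0477), and this call was lost under 12 of 23 alternatives.

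No member was called between Tfh5_4e4 and Tfh2_4e4, where 3.11% of all genes tested passed edgeR's test, 1.41% higher and 1.7% lower. At an unadjusted p under 0.05 there were 8 members, and DESeq2 and limma-voom also called none. The smallest adjusted p among members was 0.121. The members' median log2 fold change was -0.028, and it ran from -0.084 to 0.002 when 1 library at a time was left out. The median SE of a member was 0.136. Differences smaller than a few such errors were not detectable at this depth.

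Along the 4 Tfh2 numbers the tested members were mostly lower at higher numbers. The slope of log2 level per doubling of the number was negative in 41 called members and positive in 6, while 46.9% of all genes tested were called, 22.8% lower and 24.1% higher. The median slope was -0.112 over the members and -0.003 over all genes, and it was -0.117 and -0.138 within the 2 ranges of library numbers. Between the ends, Tfh2_6e4 against Tfh2_1e4, 36 members were lower and 5 higher, with 43.0% of all genes called, 20.7% lower and 22.3% higher. The members' median log2 fold change was -0.32 there. With the mitochondrial rRNA share as a covariate, 30 members fell and 6 rose per doubling (median -0.091, with 4971 of all genes called). Between the ends 27 were then lower and 6 higher (median -0.241, with 4526 of all genes called). The share averaged 8.41%, 9.38%, 9.92% and 10.2% at 1e4, 2e4, 4e4 and 6e4. In 34 of 85 members (40.0%) the group mean was lower at every step, against 19.5% of all genes tested, and in 4 members (4.71%) it was higher at every step, against 20.3% of all genes.

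Between neighbouring numbers fewer members passed. None of the members passed between Tfh2_2e4 and Tfh2_1e4, where 5.26% of all genes tested did (4.06% higher, 1.2% lower). At an unadjusted p under 0.05 there were 11 members. DESeq2 called 3 members (704 of all genes) and limma-voom 1 (577 of all genes). Between Tfh2_4e4 and Tfh2_2e4, where 13.0% of all genes passed (7.59% higher, 5.4% lower), 2 members were higher (Ndufb11 and Cox7a2l) and 2 lower (Ndufa4 and Atp5g3). The calls of Ndufb11 and Cox7a2l were lost under 10 and 12 of 23 alternatives, those of Ndufa4 and Atp5g3 under 1 and 0. In that step the replicate number as a block gave 2 higher and 13 lower, with 1902 of all genes called. The ranges of library numbers as a factor gave 2 higher and 9 lower, with 1797 of all genes called. Without either, 1475 of all genes were called. Leaving out 1 library at a time gave 3 to 11 calls there, the highest without Tfh2_4e4 replicate 4. Between Tfh2_6e4 and Tfh2_4e4 only Ndufb11 passed in edgeR's test, with a log2 fold change of 0.45, where 1.48% of all genes did (0.616% higher, 0.863% lower). Leaving out 1 library at a time gave 1 or 2 calls there.

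**Figure D4:**
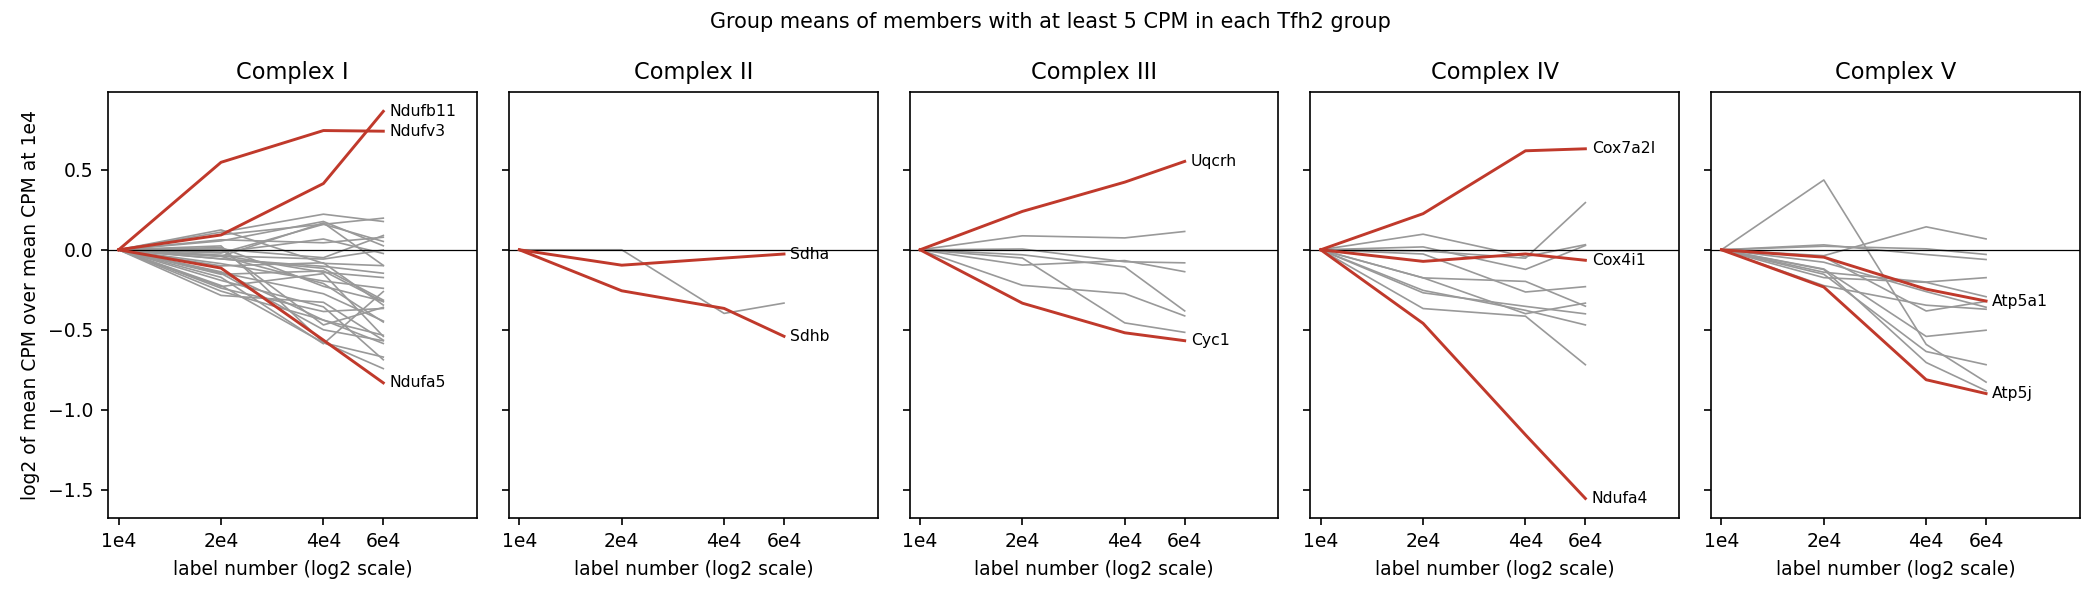
Log2 of the group mean CPM relative to Tfh2_1e4 (vertical axis) against the number in the Tfh2 label (horizontal axis, log2 scale), 1 line per member with a mean of at least 5 CPM in each Tfh2 group, by complex. Most lines run downwards; Ndufb11, Ndufv3, Uqcrh and Cox7a2l run upwards, and Ndufa4 has the steepest fall.

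In complex I the slope was negative in 18 called members and positive in 3. Ndufa5 averaged 42.0, 38.8, 28.4 and 23.6 CPM at 1e4, 2e4, 4e4 and 6e4, and its end groups did not overlap. Its slope was -0.33 (SE 0.0556, edgeR adjusted p = 3.02e-06). Ndufa1, a membrane-arm subunit, fell by 0.32 per doubling. Those that rose were Ndufb11, Ndufv3 and Ndufa7. Ndufv3 is an accessory subunit of the NADH-oxidising module, and its slope was 0.29 (SE 0.0766, edgeR adjusted p = 0.00177) with overlapping ends.

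Ndufb11 ranged from 90.1 to 117.0 CPM (median 103.1) in Tfh2_1e4, and measured 109.0, 114.3, 113.0, 104.6 and 114.0 CPM in Tfh2_2e4. It ranged from 109.2 to 156.2 CPM (median 143.9) in Tfh2_4e4 and from 169.1 to 228.0 CPM (median 186.3) in Tfh2_6e4. All Tfh2_6e4 libraries lay above those of the other 3 numbers. The slope was 0.32 per doubling (SE 0.0330, edgeR adjusted p = 4.13e-11), and it held under each of the 35 alternatives run.

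In complex II only Sdhb, the iron-sulfur subunit, was called. It had means of 123.5, 103.4, 95.8 and 84.9 CPM at 1e4, 2e4, 4e4 and 6e4 with a slope of -0.20 (SE 0.0428, edgeR adjusted p = 0.000175). Sdha stayed between 92.7 and 99.1 CPM in its group means.

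In complex III, 4 members fell and Uqcrh rose. Cyc1 had means of 63.9, 50.7, 44.6 and 43.1 CPM in the order of the numbers with a slope of -0.22 (SE 0.0510, edgeR adjusted p = 0.000400), a call that was lost within libraries 1 to 3 alone. Uqcrb, a subunit next to the ubiquinone site, also fell by 0.22. Uqcrh, the acidic hinge protein between cytochromes c1 and c, had means of 296.3, 349.9, 397.2 and 434.5 CPM. Its end groups did not overlap, and the slope was 0.21 (SE 0.0290, edgeR adjusted p = 5.23e-08). A pseudogene, Gm12854, overlaps Uqcrh.

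Complex IV had 7 members that fell and 2 that rose. Ndufa4 ranged from 28.8 to 50.1 CPM (median 35.0) in Tfh2_1e4 and measured 37.1, 24.0, 26.0, 25.3 and 22.0 CPM in Tfh2_2e4. It ranged from 12.2 to 19.5 CPM (median 17.4) in Tfh2_4e4 and from 9.37 to 15.3 CPM (median 12.7) in Tfh2_6e4. The lower numbers 1e4 and 2e4 overlapped each other, as did 4e4 and 6e4, with no overlap between these pairs. The slope of Ndufa4 was -0.61 (SE 0.0542, edgeR adjusted p = 6.85e-13), and Tfh2_6e4 stood at a log2 fold change of -1.55 to Tfh2_1e4 (SE 0.153). Cox5b, a zinc-binding subunit, fell by 0.25 per doubling.

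The 2 that rose were Cox7a2l and Cox6b2. Cox7a2l ranged from 199.2 to 305.8 CPM (median 232.0) in Tfh2_6e4 and from 137.7 to 180.0 CPM (median 159.8) in Tfh2_1e4. The 2 ends did not overlap, and the slope was 0.27 (SE 0.0433, edgeR adjusted p = 1.61e-06). Its means at 6e4 and 4e4 were 243.3 and 241.2 CPM, which differed by less than their spread. Cox6b2 had means of 0.691, 1.78, 3.69 and 5.55 CPM in the order of the numbers, resting on 38, 66, 167 and 235 counts per group, and rose by 1.16 per doubling (SE 0.152, edgeR adjusted p = 1.66e-08).

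In complex V, 9 members fell and none rose. The mature c subunit, which forms the rotating ring, is made from 3 genes that differ in their targeting sequences. Atp5g3 had means of 418.3, 376.2, 269.2 and 254.3 CPM at 1e4, 2e4, 4e4 and 6e4 with a slope of -0.30 (SE 0.0368, edgeR adjusted p = 2.86e-09). Atp5g1 fell by 0.36 (SE 0.106, edgeR adjusted p = 0.00399), with 44.0, 40.4, 27.0 and 23.9 CPM, and Atp5g2 was at most 2.73 CPM in any library. Atp5j, a coupling factor of the stalk, fell by 0.38 (SE 0.0952, edgeR adjusted p = 0.000975). Atp5j overlaps 967 bases of Gabpa, which lies on the opposite strand. Atp5b fell by 0.14, with means of 418.0, 357.9, 328.8 and 323.1 CPM.

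Of the assembly factors, Ndufaf2 and Ndufaf4 fell by 0.31 and 0.28 per doubling. Ndufaf2, which acts late in building complex I, was also higher in TfhA_4e4 (18.5 ± 4.0 CPM) than in Tfh5_4e4 (13.4 ± 1.11 CPM) and Tfh2_4e4 (11.3 ± 2.50 CPM). Of its 2 calls, the one against Tfh5_4e4 (log2 fold change 0.47, edgeR adjusted p = 0.0277) was lost under 8 of 23 alternatives, and the one against Tfh2_4e4 (0.71, edgeR adjusted p = 0.00108) under 2.

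A total of 29 tested members were called in no comparison. They were 13 of 37 in complex I, 2 of 3 in complex II, 1 of 8 in complex III, 3 of 13 in complex IV, 5 of 16 in complex V and 5 of 8 assembly factors. Cox4i1, the largest nuclear-encoded subunit of complex IV, was one of them. It had means of 412.7 ± 75.2 CPM in TfhA_4e4, 386.7 ± 75.2 CPM in Tfh5_4e4 and 398.1 ± 76.7, 378.6 ± 82.4, 391.0 ± 69.7 and 380.4 ± 61.4 CPM at 1e4, 2e4, 4e4 and 6e4 in Tfh2. Uqcrc2, a core protein of complex III, and Sdha and Sdhc were others.

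Several tissue-restricted isoforms were near the limit of counting. Cox4i2, the isoform of Cox4i1 that in other cells follows low oxygen, had 1, 6, 21 and 51 counts over the groups Tfh2_1e4, Tfh2_2e4, Tfh2_4e4 and Tfh2_6e4, in 1 of 6, 2 of 5, 5 of 6 and 6 of 6 libraries. It overlaps 6308 bases of Bcl2l1, which lies on the minus strand. Cox6a2, known from heart and skeletal muscle, had 24 counts in 4 of 5 TfhA_4e4 libraries and 0 in Tfh5_4e4 and Tfh2_4e4, where a count of 0 allows up to 3 counts over the group. Cox7a1, another muscle isoform, was tested and called nowhere, with 7.23 ± 2.73 CPM in TfhA_4e4, 6.12 ± 2.04 CPM in Tfh5_4e4 and 7.83 ± 1.64 CPM in Tfh2_4e4.

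Nuclear respiratory factor 1 (NRF1) is known to drive many of these genes. Its motif was searched as GCGC, any 1 base and TGCGC, on both strands. Promoters from 250 bases before to 50 after each start (RefSeq, GRCm38.p6) were found for 77 of 96 members. The motif stood in 24.7% of them, in 12.6% of the promoters of all genes tested and in 7.17% of all protein-coding promoters. Among members with a called negative slope 10 of 34 (29.4%) held it, against 7 of 36 (19.4%) of the other tested members. The motif CCGGAAG, to which ETS factors such as GABP bind, stood on either strand in 24.7% of members and 21.9% of genes tested. A match of letters is a description and shows no binding. The free base makes the search wider than the usual NRF1 consensus, which has a pyrimidine after GCGCA, and the matches in Ndufa5 and Atp5h have a G there. Printed 5′ to 3′ are the 250 bases before the start for Ndufa5, Ndufaf4 and Atp5h, the members with the most negative slopes among those with a match there, with the NRF1 match in capitals. Ndufa4 is added because it fell most steeply, and it held no match. They lie at chr6:24527691-24527940 (Ndufa5, minus strand, the outer of its 2 listed starts, at the annotated end of the gene), chr4:24897833-24898082 (Ndufaf4, plus strand), chr11:115419920-115420169 (Atp5h, minus strand) and chr6:11907451-11907700 (Ndufa4, minus strand).
Ndufa5: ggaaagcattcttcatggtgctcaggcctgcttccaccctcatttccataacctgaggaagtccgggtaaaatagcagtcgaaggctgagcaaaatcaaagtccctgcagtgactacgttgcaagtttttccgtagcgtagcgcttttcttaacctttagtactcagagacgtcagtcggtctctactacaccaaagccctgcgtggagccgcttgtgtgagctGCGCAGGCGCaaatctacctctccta
Ndufaf4: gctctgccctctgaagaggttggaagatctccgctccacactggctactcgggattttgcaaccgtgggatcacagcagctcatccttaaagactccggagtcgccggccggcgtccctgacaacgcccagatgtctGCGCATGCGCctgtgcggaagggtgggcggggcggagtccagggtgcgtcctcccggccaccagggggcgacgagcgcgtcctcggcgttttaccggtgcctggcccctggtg
Atp5h: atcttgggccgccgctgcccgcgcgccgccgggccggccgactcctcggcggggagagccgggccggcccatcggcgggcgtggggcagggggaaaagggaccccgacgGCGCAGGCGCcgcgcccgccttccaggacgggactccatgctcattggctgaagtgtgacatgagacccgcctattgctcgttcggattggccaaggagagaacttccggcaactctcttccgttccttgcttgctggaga
Ndufa4: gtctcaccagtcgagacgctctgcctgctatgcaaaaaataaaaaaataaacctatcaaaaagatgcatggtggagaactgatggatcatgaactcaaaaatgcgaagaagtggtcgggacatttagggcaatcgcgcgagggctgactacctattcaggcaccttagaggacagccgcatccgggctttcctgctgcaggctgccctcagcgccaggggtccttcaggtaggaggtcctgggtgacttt
The matches begin 26 bases (Ndufa5, and 190 bases before its other start), 113 bases (Ndufaf4) and 141 bases (Atp5h) before the start. Along the Tfh2 numbers the slopes of these 3 genes were -0.33 (Ndufa5), -0.28 (Ndufaf4) and -0.23 (Atp5h) on the log2 scale.

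Counts for the following gene lists stand against 32.8% of all genes called for TfhA_4e4 against Tfh2_4e4, 39.5% against Tfh5_4e4 and 46.9% for the slope. The partners encoded in mitochondrial DNA could be tested for 8 of 13 mRNAs. In TfhA_4e4, 6 of 8 were higher than in Tfh2_4e4 and 5 of 8 higher than in Tfh5_4e4, with none lower and medians of 0.59 and 0.64. The gene mt-Nd1, a core complex I subunit, had 3281.7 ± 765.4 CPM in TfhA_4e4, 1980.5 ± 290.8 CPM in Tfh5_4e4 and 2044.1 ± 338.9 CPM in Tfh2_4e4. The mitochondrial rRNA share was higher in the same libraries. Along the Tfh2 numbers mt-Nd1 and mt-Nd2 fell, by 0.26 and 0.28 per doubling, while mt-Co1, the catalytic subunit of complex IV, rose by 0.25 (SE 0.0339, edgeR adjusted p = 2.73e-08), with means of 832.7, 944.3, 1144.4 and 1312.6 CPM.

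Enzymes of the pyruvate dehydrogenase complex and the TCA cycle, which feed the chain, were likewise mostly lower at higher numbers. Of 20 tested, 11 fell and 1 (Suclg1, of succinyl-CoA synthetase) rose per doubling, with a median slope of -0.13. Idh3a, of the NAD-linked isocitrate dehydrogenase, fell by 0.30. In TfhA_4e4, 6 of these 20 genes were higher than in Tfh2_4e4 and none lower, among them Idh2 (log2 fold change 0.58).

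Genes known to remodel respiration in low oxygen changed in the opposite direction along the numbers. All 8 tested of 10 listed rose per doubling, with a median of 0.47 (Cox4i2 and Ndufa4l2 were the 2 not tested). Pdk1, a kinase that inhibits pyruvate dehydrogenase, had means of 29.6, 55.7, 92.9 and 93.8 CPM at 1e4, 2e4, 4e4 and 6e4 (slope 0.67, SE 0.0416, edgeR adjusted p = 4.88e-18). Bnip3, a receptor for the removal of mitochondria, had 68.6, 180.7, 323.0 and 356.0 CPM (slope 0.93, SE 0.0463, edgeR adjusted p = 2.96e-21). In TfhA_4e4, 4 of the 8 were lower than in Tfh2_4e4 and 1 higher. Pdk1 stood at 60.9 ± 6.46 CPM in TfhA_4e4, 68.5 ± 4.63 CPM in Tfh5_4e4 and 92.9 ± 9.78 CPM in Tfh2_4e4. Pdk1 and the protease Lonp1 were lower in Tfh5_4e4 than in Tfh2_4e4, by 0.44 and 0.36. The part of oxygen in the members' changes was not tested.

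Of 13 tested regulators and electron carriers, 5 fell and 1 rose per doubling, a share near the 46.9% of all genes called. Tfam, which packages and transcribes mitochondrial DNA, fell by 0.25 (SE 0.0430, edgeR adjusted p = 4.00e-06), and Cycs, which encodes cytochrome c, fell by 0.29 (SE 0.102, edgeR adjusted p = 0.0159). Nrf1 itself fell by 0.14 and Gabpa by 0.21, while Yy1 rose by 0.15. In TfhA_4e4 only Gabpb2 was called against Tfh2_4e4, with a log2 fold change of -0.35. Against Tfh5_4e4, Cycs (1.14) and Tfb1m (1.49), a mitochondrial rRNA methyltransferase, were higher, both at low levels. Cycs had 7.26 ± 2.11 CPM in TfhA_4e4 and 3.32 ± 1.3 CPM in Tfh5_4e4. Tfb1m had 4.5 ± 1.79 and 1.61 ± 0.592 CPM in these groups.

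Assembly factors outside the symbol rule were mixed, with 5 of 41 lower and 6 higher per doubling. Sco1, a copper chaperone for complex IV, had 98.7 ± 9.61 CPM in TfhA_4e4, 19.9 ± 4.24 CPM in Tfh5_4e4 and 30.3 ± 5.08 CPM in Tfh2_4e4. Its log2 fold change was 2.30 against Tfh5_4e4 (SE 0.137, edgeR adjusted p = 1.34e-18) and 1.70 against Tfh2_4e4 (SE 0.133, edgeR adjusted p = 2.23e-14). Sco1 was also lower in Tfh5_4e4 than in Tfh2_4e4, by 0.60. In the TfhA_4e4 contrast with Tfh2_4e4, 2 of 41 of these factors were higher and 3 lower, the lower ones including Cox10 (-0.69), which acts in making heme A.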

How the data were processed

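RNA of 34 libraries in 6 groups was sequenced from transcript 3′ ends, and the authors deposited whole-number counts per numeric gene identifier and library. Tools listed in the submitters' processing notes, with no role given, are featureCounts 1.6.4 and STAR 2.7.2b, and the build is mm10. The strand setting and the counting of multi-mapped reads are not given in the sources used here, so overlapping and near-identical genes carry that uncertainty; 32 of 96 members overlap another gene. Identifiers were matched to RefSeq GRCm38.p6 symbols for 25275 of 27179. The 1904 without a match entered library sizes.

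The members and gene lists were chosen with earlier results of these data known. One model held all libraries: edgeR 4.0.16 under R 4.3.3, TMM factors, low counts removed by filterByExpr on the groups (leaving 11357 genes), and quasi-likelihood tests, two-sided. Calls are at a Benjamini-Hochberg adjusted p under 0.05 across every gene tested. The slope is a contrast over the 4 Tfh2 groups, linear in log2 of their numbers. CPM is scaled to the TMM-normalized total, except in the sums of cell type markers, and 3′ counts do not scale with gene length. Floors for 0 counts cover counting error only, and the SEs also take in the spread among libraries.

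Named members are, in each comparison and complex, up to 3 called members with the largest change and a mean log2 CPM of at least 3, the called member that goes most against its complex, and fixed isoform sets; the others are given by counts, or were named after their values were seen. Alternatives were DESeq2 1.42.0, its size factors, limma-voom (limma 3.58.1), no low-count filter, other library totals, a replicate block, the mitochondrial rRNA share as a covariate, only the compared groups, 2 libraries left out together, and each replicate left out. After the data were seen, the ranges of library numbers (1 to 3 and 4 to 6) were added as a factor and each was fitted alone.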

Additional observations from a re-analysis of the deposited data

Results flagged for a closer look

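In 18 of 258 checks of a group of libraries for 1 member or complex, 1 library stood apart from the others by Dixon's criterion, which chance alone meets in about 1 in 20. Of the 18, 12 were libraries numbered 1.

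Atp5g1 was at 67.4 CPM in TfhA_4e4 replicate 1, with the others between 22.9 and 33.1, at 43.6 CPM in Tfh5_4e4 replicate 1 (others 16.8 to 23.2) and at 55.6 CPM in Tfh2_4e4 replicate 1 (others 16.9 to 23.8). Atp5h was at 140.8 CPM in Tfh5_4e4 replicate 1 (others 84.7 to 104.7) and at 119.7 CPM in Tfh2_6e4 replicate 1 (others 70.4 to 84.4). Atp5j2 was at 194.7 CPM in Tfh5_4e4 replicate 1 (others 130.8 to 153.2) and at 201.6 CPM in Tfh2_6e4 replicate 1 (others 139.6 to 159.9). Cox4i1 was at 545.7 CPM in TfhA_4e4 replicate 1 (others 360.6 to 392.2) and at 500.0 CPM in Tfh2_6e4 replicate 1 (others 328.2 to 378.7). The summed level of complex V was 2315.6 CPM in Tfh2_6e4 replicate 1 (others 1827.0 to 1959.8), and Ndufb9 was at 142.8 CPM there (others 96.5 to 104.7). Ndufa4 was at 37.1 CPM in Tfh2_2e4 replicate 1 (others 22.0 to 26.0).

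Among other libraries, Atp5c1 was at 95.6 CPM (others 113.7 to 118.7) and Cox6b1 at 146.4 CPM (others 210.5 to 230.9) in TfhA_4e4 replicate 6. Ndufa5 was at 51.4 CPM in Tfh2_1e4 replicate 5 (others 37.9 to 42.0), Ndufb11 at 228.0 CPM in Tfh2_6e4 replicate 2 (others 169.1 to 190.1), Sdha at 109.9 CPM in Tfh2_6e4 replicate 5 (others 91.2 to 96.4) and Uqcrq at 222.1 CPM in Tfh2_4e4 replicate 2 (others 179.4 to 193.0). What sets these libraries apart was not tested.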

How the results depend on the processing

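None of the fold changes of named members that passed the test changed direction under the alternatives run. Over 164 fold changes of named members and 4108 recomputed values, 3970 kept their side of the threshold, 81 lost the call and 57 gained it. Leaving out each replicate in turn gave 18 to 28 members called for TfhA_4e4 against Tfh2_4e4, 30 to 39 against Tfh5_4e4, 0 to 1 for Tfh5_4e4 against Tfh2_4e4, 44 to 49 for the slope, 39 to 44 for Tfh2_6e4 against Tfh2_1e4, and 0 to 2, 3 to 11 and 1 to 2 for the 3 steps.

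Over all genes tested, replicate numbers paired the libraries only weakly. Of 80 pairs with the same number 15 correlated above 0.1 after removal of group means. The mean correlation was 0.0494 against -0.0098 for other numbers. These values do not settle whether the members vary with the number. With the replicate block 35, 42, 52 and 44 members were called for TfhA_4e4 against Tfh2_4e4 and against Tfh5_4e4, the slope and the ends. The block gave 1 for Tfh5_4e4 against Tfh2_4e4, and 4 and 15 for the first and second step. Of all genes, 4054, 4807, 5643, 5224, 584, 724 and 1902 were then called, in that order. Without the block these were 3729, 4489, 5331, 4889, 353, 597 and 1475. The first step gave 1 member with no filter (574 of all genes), 3 with DESeq2 (704) and 1 with limma-voom (577). The second step gave 7 with no filter (1384 of all genes), 9 with DESeq2 (1702) and 9 with limma-voom (1629). It gave 2 with only the compared groups (1065), 11 with the number ranges as a factor (1797) and 2 within libraries 1 to 3 (457). The range factor gave 1 member for Tfh5_4e4 against Tfh2_4e4 (519 of all genes). Within libraries 1 to 3 alone, 11 members were called for TfhA_4e4 against Tfh2_4e4 (2300 of all genes). Within libraries 4 to 6 alone, 19 were called for TfhA_4e4 against Tfh5_4e4 (2830 of all genes). Both ranges alone gave 0 in the third step (23 and 34 of all genes). These fits hold fewer libraries. The cause of the other changes was not tested. Members with few counts and the smaller TfhA_4e4 libraries are the least precise.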

Other observations

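In each of the 6 groups the library numbered 1 held the highest level of between 24.7% and 52.9% of the 85 tested members. For all genes tested the same share was between 15.8% and 22.9%. Library 1 did not lead in every group. In TfhA_4e4 library 3 held 36.5% of members against 28.2% for library 1, and in Tfh2_2e4 library 2 held 41.2% against 24.7%. The labels do not say what the number marks.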
